A study of Homo sapiens with 33 samples.

Results

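The 10 genes described here are markers and regulators of the epithelial-mesenchymal transition (EMT): *CDH1* and *EPCAM* on the epithelial side, *CDH2*, *VIM* and *FN1* on the mesenchymal side, and the transcription factors *SNAI1*, *SNAI2*, *TWIST1*, *ZEB1* and *ZEB2*. They were taken by name, 10 of the 35805 genes in the RNA table and 102 of the 153958 start-site windows in the ChIP table. No cut on their values was applied, but earlier results of these data were known when they were chosen, so their counts are a description. The cells were H9 human embryonic stem cells (ESCs) cultured on irradiated CF1 mouse embryonic fibroblast feeders, in 4 genotypes. *EZH2*+/+ (WT) were the parental cells, and *EZH2*-/+ (Het) carried a CRISPR/Cas9 mutation of 1 allele in an early exon. *EZH2*-/- (Null) came from an *EZH2*-/+ line that was given a doxycycline (DOX)-inducible piggyBac *EZH2* transgene and targeted again under DOX. Without DOX these cells lacked EZH2, and the study also excised the transgene in some lines. *EZH2*-/- +*EZH2* (Null+EZH2) had the transgene switched on by DOX. The mutant lines were picked as clones, so relative to *EZH2*+/+ ESCs a difference of clone and a difference of genotype cannot be told apart. Between *EZH2*-/- and *EZH2*-/- +*EZH2* ESCs, which share the targeted alleles, exposure to DOX and the presence of EZH2 cannot be told apart. RNA-seq covered 3 libraries per genotype of SSEA4-positive flow-sorted cells, while ChIP-seq profiled 4 histone marks (H3K27me3, H3K27ac, H3K4me3, H3K4me1) with input in every genotype, and EZH2 itself in *EZH2*+/+ ESCs after crosslinking.

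EMT is the change by which epithelial cells lose E-cadherin junctions and apical polarity and gain a migratory, fibronectin-rich mesenchymal state. The SNAIL, ZEB and TWIST factors drive it, and SNAIL and ZEB proteins repress *CDH1* through E-boxes in its promoter. ESCs are epithelial cells, and a first natural EMT takes place when epiblast cells leave through the primitive streak during gastrulation. EZH2 is the catalytic subunit of Polycomb repressive complex 2 (PRC2), which places H3K27me3 on silent, mostly CpG-rich promoters.

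In RNA, the epithelial and mesenchymal genes did not move as 2 opposing blocks in *EZH2*-/- ESCs. Relative to *EZH2*+/+ ESCs *TWIST1* and *FN1* rose, *CDH1* and *EPCAM* rose with them, and *CDH2*, *VIM* and *ZEB2* were lower. *ZEB1* was called lower too, with libraries that overlapped those of *EZH2*+/+ ESCs. With *EZH2* restored, the libraries of *TWIST1*, *FN1* and *CDH1* overlapped those of *EZH2*+/+ ESCs, while *EPCAM* and *ZEB2* differed from *EZH2*+/+ in all 3 edited genotypes. In chromatin, H3K27me3 in *EZH2*-/- ESCs was below input at the windows of all 10 genes, where 79.1% of all gene names were. These held both genes whose RNA rose and genes whose RNA fell.

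Promoter sequences of 5 of the 10 genes (*FN1*, *VIM*, *ZEB2*, *CDH2* and *ZEB1*) were taken from RefSeq on GRCh38.p14, each covering 250 bases before and 50 after a transcription start. The first 4 are shown for their CpG content, a known feature of PRC2 target promoters, with every CpG in capitals. *FN1* (chr2:215436019-215436318, minus strand) had 38 CpG, at the 91.3 percentile of the 35116 promoters of this length, whose median was 14. *CDH2* (chr18:28177081-28177380, minus strand) had 23 (66.1 percentile), *ZEB2* (chr2:144520070-144520369, minus strand) had 14 (51.1 percentile), and *VIM* (chr10:17227991-17228290, plus strand) had 10 (45.3 percentile). A further *CDH2* promoter (chr18:28036592-28036891), not printed, had 4 (29.6 percentile). The last is the 1 of 7 listed *ZEB1* promoters (chr10:31318966-31319265, plus strand) with 3 matches to the E-box core CACCTG or its reverse complement CAGGTG, here in capitals.
FN1: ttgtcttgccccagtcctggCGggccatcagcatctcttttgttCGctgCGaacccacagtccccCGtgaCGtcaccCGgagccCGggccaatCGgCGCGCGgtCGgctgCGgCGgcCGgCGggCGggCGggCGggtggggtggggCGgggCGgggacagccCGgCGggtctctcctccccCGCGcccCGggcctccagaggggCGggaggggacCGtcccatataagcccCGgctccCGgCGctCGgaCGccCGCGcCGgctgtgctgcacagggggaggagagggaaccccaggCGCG
CDH2: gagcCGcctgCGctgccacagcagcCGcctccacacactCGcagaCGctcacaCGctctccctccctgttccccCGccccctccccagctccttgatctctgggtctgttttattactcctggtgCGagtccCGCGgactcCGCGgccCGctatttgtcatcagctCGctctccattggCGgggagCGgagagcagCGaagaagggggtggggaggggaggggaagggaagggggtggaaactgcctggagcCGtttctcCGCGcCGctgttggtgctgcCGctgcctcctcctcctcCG
ZEB2: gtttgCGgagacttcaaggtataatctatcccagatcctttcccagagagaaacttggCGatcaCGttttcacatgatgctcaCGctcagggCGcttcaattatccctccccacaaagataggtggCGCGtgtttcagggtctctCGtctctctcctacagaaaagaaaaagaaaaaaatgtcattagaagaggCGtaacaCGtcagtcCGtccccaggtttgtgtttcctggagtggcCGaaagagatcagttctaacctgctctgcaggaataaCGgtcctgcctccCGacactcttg
VIM: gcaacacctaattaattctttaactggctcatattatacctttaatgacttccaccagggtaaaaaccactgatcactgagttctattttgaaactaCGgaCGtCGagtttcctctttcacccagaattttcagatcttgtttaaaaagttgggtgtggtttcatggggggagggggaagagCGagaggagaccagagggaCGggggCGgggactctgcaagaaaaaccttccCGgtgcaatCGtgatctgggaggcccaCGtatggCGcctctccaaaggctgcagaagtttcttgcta
ZEB1: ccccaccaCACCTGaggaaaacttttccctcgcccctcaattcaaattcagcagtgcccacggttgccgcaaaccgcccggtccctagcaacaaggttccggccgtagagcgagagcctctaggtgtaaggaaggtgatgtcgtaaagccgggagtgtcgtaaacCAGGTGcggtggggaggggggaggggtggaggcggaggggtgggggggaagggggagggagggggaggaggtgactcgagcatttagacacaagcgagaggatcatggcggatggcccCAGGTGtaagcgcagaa

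The *ZEB1* matches began at positions -242, -85 and 34 from the start, and a further *ZEB1* promoter (chr10:31318167-31318466) held 1 match at -57. None of the promoters listed for *FN1*, *VIM*, *ZEB2* and *CDH2* held this core in these 300 bases, and 20.6% of all promoters did. A match describes letters and not a bound site. The *FN1*, *CDH2*, *VIM* and *ZEB1* stretches lie inside the 5 kb ChIP windows described further on, and that of *ZEB2* does in part.

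RNA libraries held 16587860 to 36589089 reads on genes, and levels are given in RPM, reads per 1e6 mapped reads, in which 3 reads made 0.0528 to 0.120 RPM. *EZH2* itself was at 59.5 to 68.6 RPM in *EZH2*+/+, 45.7 to 55.4 RPM in *EZH2*-/+, 8.65 to 11.5 RPM in *EZH2*-/- and 256 to 385 RPM in *EZH2*-/- +*EZH2* libraries. All 12 markers of undifferentiated ESCs had reads in every library, with summed levels of 3626 to 4547 RPM in *EZH2*+/+ and 4672 to 5125 RPM in *EZH2*-/- libraries. Of these 12, 6 were called higher and 2 lower (*SOX2* and *PODXL*, named after their values were seen) in *EZH2*-/- relative to *EZH2*+/+ ESCs, where 12.6% and 18.8% of all genes tested were. Markers of other cells moved with the genotype: 8 endoderm markers summed to 166 to 470 RPM in *EZH2*-/- against 24.3 to 51.2 RPM in *EZH2*+/+ and 26.0 to 56.2 RPM in *EZH2*-/- +*EZH2* libraries, and 458 RPM in the second *EZH2*-/+ library. The 10 primitive streak and mesoderm markers summed to 200.3 to 271 RPM in *EZH2*-/-, 57.4 to 93.2 RPM in *EZH2*+/+ and 78.4 to 211 RPM in *EZH2*-/- +*EZH2* libraries. For the 10 fibroblast or stroma markers the sums were 311 to 576 RPM in *EZH2*-/-, 305 to 380 RPM in *EZH2*+/+ and 243 to 328 RPM in *EZH2*-/- +*EZH2* libraries, with *FAP* at 0 in all 12 and *DCN* at no more than 0.17 RPM. This sum mixes opposite changes and need not follow the number of such cells. *THY1* was at 157 to 195 RPM in *EZH2*-/-, 55.7 to 73.5 RPM in *EZH2*+/+ and 83.9 to 185 RPM in *EZH2*-/- +*EZH2* libraries. *COL1A2* was at 62.0 to 125 RPM in *EZH2*-/- and 159 to 198 RPM in *EZH2*+/+ libraries. The 8 ectoderm markers summed to 319 to 357 RPM in *EZH2*-/- and 213 to 275 RPM in *EZH2*+/+ libraries, with 183 to 295 RPM once *EZH2* was restored. Even so, 3 of the 7 tested were called lower and 1 higher in *EZH2*-/- relative to *EZH2*+/+ ESCs, where 18.8% and 12.6% of all genes were. The 8 trophectoderm and amnion markers summed to 12.5 to 57.5 RPM in *EZH2*-/-, 6.62 to 17.3 RPM in *EZH2*+/+ and 4.82 to 8.07 RPM in *EZH2*-/- +*EZH2* libraries. In bulk samples more cells of a type and more RNA per cell cannot be told apart, and the part of these other cells in the results was not tested.

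**Figure D1:**
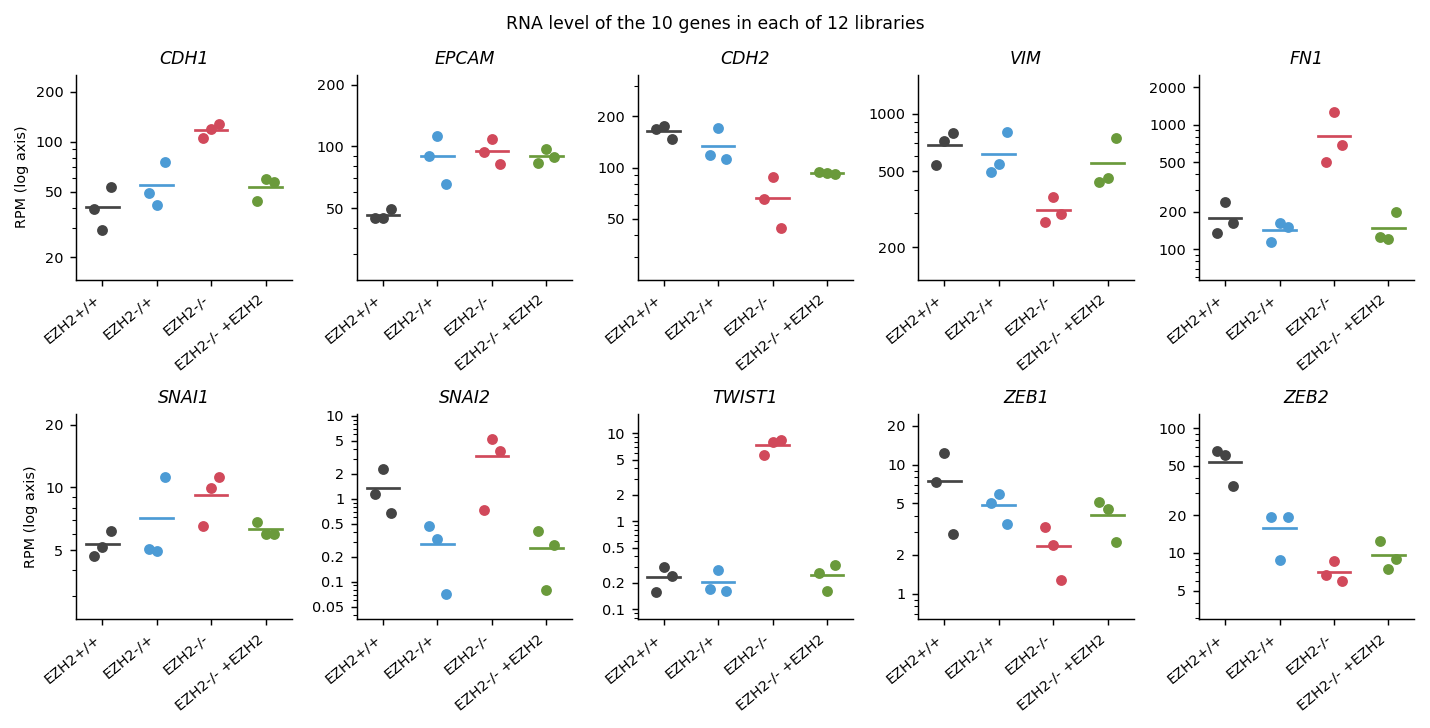
RNA level of each gene in each of the 12 libraries, in RPM on a log axis, with 3 points per genotype in the order of the library numbers and a line at the mean. *TWIST1* stood at 5.61 to 8.34 RPM in *EZH2*-/- libraries and at or below 0.32 RPM in all others, while *EPCAM* and *ZEB2* separated *EZH2*+/+ from the 3 edited genotypes.

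Per kilobase of exon, *VIM* was the highest of the 10 in each genotype. In *EZH2*+/+ ESCs the order of mean levels in RPM per kilobase (RPKM) was *VIM* at 132, *EPCAM* at 19.1, *CDH2* at 19.0, *FN1* at 10.4, *CDH1* at 6.68, *SNAI1* at 3.14, *ZEB2* at 2.04, *ZEB1* at 0.869, *SNAI2* at 0.415 and *TWIST1* at 0.117. *EPCAM* and *CDH2*, *FN1* and *CDH1*, and *ZEB1* and its neighbours *ZEB2* and *SNAI2* had overlapping libraries. *FN1* in *EZH2*-/- ESCs moved up to 47.4 RPKM (29.2 to 73.3), overlapping *VIM* at 60.2 (52.2 to 70.6), and *TWIST1* to 3.66. There *ZEB2* at 0.271 and *ZEB1* at 0.269 were last, and the libraries of *SNAI2* (0.225 to 1.61) overlapped both. The exon length used for *ZEB2*, 26.2 kb, was the longest of the 10. In RPM it stood at 7.08 in *EZH2*-/- ESCs, above *SNAI2* at 3.26 and *ZEB1* at 2.32.

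RNA differences were tested with limma on log2(RPM + 0.1), with Benjamini-Hochberg adjustment over 20608 genes, and called at an adjusted p under 0.05. All 10 genes passed the filter of a mean of 0.1 RPM. In *EZH2*-/- relative to *EZH2*+/+ ESCs 4 of the 10 were called higher and 4 lower, where 12.6% of all genes tested were called higher and 18.8% lower. Compared with *EZH2*-/- +*EZH2* ESCs 4 were called higher, where 2.63% of all genes were, and 0 lower, where 0.524% were. *VIM* and *CDH2*, 2 of the 10, were lower there at an unadjusted p under 0.05, where 6% of all genes were, and voom on the recovered reads called 0 lower, where 0.199% of genes were. In *EZH2*-/+ relative to *EZH2*+/+ ESCs 1 was called higher and 1 lower, against 0.18% and 0.966% of genes. For *EZH2*-/- +*EZH2* relative to *EZH2*+/+ ESCs 1 was called higher and 2 lower, against 3.4% and 6.9% of genes. The 2 comparisons of *EZH2*-/- share its libraries, and 3 of the 4 share those of *EZH2*+/+, so their counts are not independent. The median change over all genes was -0.13 in *EZH2*-/- and -0.15 in *EZH2*-/- +*EZH2* relative to *EZH2*+/+ ESCs. After rescaling by median ratios it was -0.01 in both, and the calls of *EZH2*-/- relative to *EZH2*+/+ turned from 2593 higher and 3870 lower to 3378 and 2822, and those of *EZH2*-/- +*EZH2* from 701 and 1422 to 1030 and 877. No member changed direction with the rescaling.

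**Figure D2:**
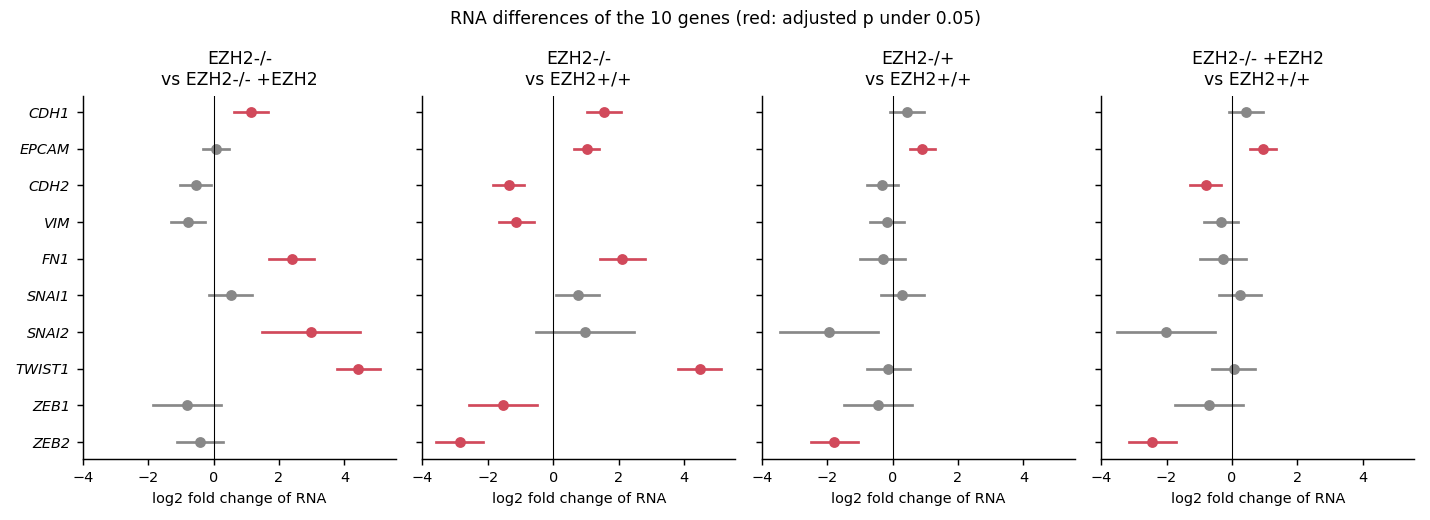
Log2 fold change of RNA for the 10 genes in the 4 comparisons, with 95% intervals from limma over 12 libraries and called genes in red. *TWIST1* (4.48 and 4.43) and *FN1* (2.12 and 2.39) were higher in both comparisons of *EZH2*-/- ESCs, and *EPCAM* and *ZEB2* differed from *EZH2*+/+ in all 3 edited genotypes.

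Of the epithelial genes, *CDH1* encodes E-cadherin, the calcium-dependent adhesion molecule of epithelial junctions. Libraries 1 to 3 held 39.4, 29.3 and 52.9 RPM in *EZH2*+/+, 48.7, 41.4 and 75.2 RPM in *EZH2*-/+, 105, 119 and 128 RPM in *EZH2*-/- and 43.6, 59.5 and 57.2 RPM in *EZH2*-/- +*EZH2* ESCs. The 3 *EZH2*-/- libraries were above all 9 others, which overlapped each other. *CDH1* rose by 1.57 on the log2 scale relative to *EZH2*+/+ (standard error 0.24, adjusted p = 0.000587) and by 1.14 relative to *EZH2*-/- +*EZH2* ESCs (adjusted p = 0.0240). The second call was lost without *EZH2*-/- library 2 (adjusted p = 0.114) or 3 (0.0920), and without *EZH2*-/- +*EZH2* library 1 (0.0818), 2 (0.0625) or 3 (0.0612), and with no filter (0.0943), while the log2 difference stayed between 1.00 and 1.22 with any library left out. The listed gene *RP11-354M1.2*, at a mean of 3.19 RPM over the 12 libraries, overlaps *CDH1*, and the counting did not use strand.

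*EPCAM* encodes an epithelial adhesion protein that is also a surface marker of undifferentiated ESCs. It stood at 44.8, 44.9 and 49.5 RPM in *EZH2*+/+, 90.2, 112 and 65.5 RPM in *EZH2*-/+, 93.7, 109 and 81.7 RPM in *EZH2*-/- and 83.3, 97.5 and 88.4 RPM in *EZH2*-/- +*EZH2* libraries. The 9 libraries of edited lines were all above the 3 of *EZH2*+/+ and overlapped among themselves. Relative to *EZH2*+/+ the log2 difference was 0.91 in *EZH2*-/+ (adjusted p = 0.0338), 1.02 in *EZH2*-/- (adjusted p = 0.00133) and 0.95 in *EZH2*-/- +*EZH2* ESCs (adjusted p = 0.00639). Between *EZH2*-/- and *EZH2*-/- +*EZH2* ESCs it was 0.07, with a 95% interval of -0.32 to 0.46. The call in *EZH2*-/+ was lost in a fit of the 2 genotypes alone (adjusted p = 0.205), with no filter (0.113) and by voom (0.0550), and without *EZH2*+/+ library 1 (0.135), 2 (0.173) or 3 (0.0556), *EZH2*-/+ library 1 (0.111) or 2 (0.151), or *EZH2*-/- library 1 (0.0528).

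Of the mesenchymal genes, *FN1* encodes fibronectin, an extracellular matrix protein. Libraries 1 to 3 held 136, 241 and 162 RPM in *EZH2*+/+, 114, 164 and 152 RPM in *EZH2*-/+, 503, 1262 and 681 RPM in *EZH2*-/- and 126, 120.1 and 199 RPM in *EZH2*-/- +*EZH2* ESCs. All *EZH2*-/- libraries exceeded all others, and library 2, the one with the most *FN1*, also held the most summed endoderm (470 RPM) and fibroblast or stroma (576 RPM) markers. The second *EZH2*-/+ library, with endoderm markers at 458 RPM, held 164 RPM of *FN1*. *CER1* alone reached 358 RPM in *EZH2*-/+ and 308 RPM in *EZH2*-/- libraries, so like sums need not mean like numbers of endoderm cells. The part of such cells in the level of *FN1* was not tested. *FN1* rose by 2.12 relative to *EZH2*+/+ (standard error 0.32, adjusted p = 0.000511) and by 2.39 relative to *EZH2*-/- +*EZH2* ESCs (adjusted p = 0.00280), and both calls held with each library left out, with log2 differences of 1.75 to 2.41 and 2.02 to 2.68.

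*VIM*, the intermediate filament protein vimentin, and *CDH2*, N-cadherin, moved the other way. *VIM* was at 537, 720 and 787 RPM in *EZH2*+/+, 496, 548 and 802 RPM in *EZH2*-/+, 270.1, 365 and 299.6 RPM in *EZH2*-/- and 438, 459 and 748 RPM in *EZH2*-/- +*EZH2* libraries, so that the *EZH2*-/- libraries were the lowest 3 of 12. *CDH2* was at 168, 176 and 146 RPM in *EZH2*+/+, 118, 170.0 and 112 RPM in *EZH2*-/+, 65.7, 87.9 and 44.1 RPM in *EZH2*-/- and 94.6, 92.9 and 91.3 RPM in *EZH2*-/- +*EZH2* libraries. Its *EZH2*-/- libraries were again the lowest 3, with those of *EZH2*-/- +*EZH2* between them and the rest. Relative to *EZH2*+/+ ESCs *VIM* fell by 1.12 (adjusted p = 0.00440) and *CDH2* fell by 1.36 (adjusted p = 0.000827) on the log2 scale. Relative to *EZH2*-/- +*EZH2* ESCs the differences were -0.78 for *VIM* (adjusted p = 0.109) and -0.55 for *CDH2* (adjusted p = 0.223). Under a block on library number these were called (adjusted p = 0.0127 and 0.0471), which made 2 members lower where 3.21% of all genes were. *CDH2* was also lower in *EZH2*-/- +*EZH2* than in *EZH2*+/+ ESCs, by 0.81 on the log2 scale (adjusted p = 0.0360), a call lost without any of the 3 *EZH2*+/+ libraries (adjusted p = 0.111, 0.126 and 0.0558 without library 1, 2 and 3) or the 3 *EZH2*-/- +*EZH2* libraries (0.0890, 0.108 and 0.0695), with median-ratio scaling (0.0886), no filter (0.114) and voom (0.0676). *VIM* overlaps *RP11-124N14.3* and *VIM-AS1*, and *CDH2* overlaps *AC015933.2* and a further listed gene, so reads of these pairs cannot be told apart without strand.

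Among the transcription factors, *TWIST1*, a basic helix-loop-helix EMT driver, changed most. It was at 0.155, 0.304 and 0.240 RPM in *EZH2*+/+, 0.171, 0.281 and 0.160 RPM in *EZH2*-/+, 5.61, 7.96 and 8.34 RPM in *EZH2*-/- and 0.257, 0.161 and 0.320 RPM in *EZH2*-/- +*EZH2* libraries. These are 281 to 424 reads per *EZH2*-/- library and 6 to 13 reads in each of the other 9. The log2 difference was 4.48 relative to *EZH2*+/+ (standard error 0.31, adjusted p = 5.05e-06) and 4.43 relative to *EZH2*-/- +*EZH2* ESCs (adjusted p = 1.70e-05), and both calls held with each library left out. Because of the low levels its size depended on the pseudocount, from 2.74 to 4.97 and from 2.72 to 4.87 over the other settings.

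*SNAI1* and *SNAI2* encode the zinc finger repressors SNAIL and SLUG. *SNAI1* was at 4.68, 5.20 and 6.18 RPM in *EZH2*+/+, 5.07, 4.97 and 11.2 RPM in *EZH2*-/+, 6.54, 9.89 and 11.3 RPM in *EZH2*-/- and 6.840, 6.003 and 5.995 RPM in *EZH2*-/- +*EZH2* libraries. The *EZH2*-/- libraries were above those of *EZH2*+/+ by a small margin and overlapped those of the other genotypes. The log2 difference was 0.75 relative to *EZH2*+/+ (95% interval 0.10 to 1.39, adjusted p = 0.0741) and 0.52 relative to *EZH2*-/- +*EZH2* ESCs (adjusted p = 0.418). The first was called under the block on library number (adjusted p = 0.0239), which gave 5 members called higher where 17.3% of all genes were, in the fit of the 2 genotypes alone (0.0348), and without *EZH2*-/+ library 3 (0.0144) or *EZH2*-/- library 1 (0.0407).

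*SNAI2* varied most between libraries of a genotype. It was at 1.15, 2.26 and 0.677 RPM in *EZH2*+/+, 0.465, 0.324 and 0.0712 RPM in *EZH2*-/+, 0.739, 5.27 and 3.77 RPM in *EZH2*-/- and 0.411, 0.0804 and 0.280 RPM in *EZH2*-/- +*EZH2* libraries, the last group resting on 3 to 16 reads. The *EZH2*-/- libraries overlapped those of *EZH2*+/+ and lay above those of *EZH2*-/- +*EZH2*. The difference was 2.99 relative to *EZH2*-/- +*EZH2* ESCs (standard error 0.69, adjusted p = 0.0369) and 0.97 relative to *EZH2*+/+ ESCs (adjusted p = 0.307). The first call was lost without *EZH2*+/+ library 1 (adjusted p = 0.0533), *EZH2*-/- library 2 (0.200) or 3 (0.136), or *EZH2*-/- +*EZH2* library 1 (0.0573), 2 (0.149) or 3 (0.0900), and in 5 of the 8 other settings (0.0562 to 0.177). Without *EZH2*-/- library 1 the second difference was 1.79 (adjusted p = 0.0488).

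*ZEB1* and *ZEB2*, the zinc finger homeobox repressors of *CDH1*, were lower in *EZH2*-/- than in *EZH2*+/+ ESCs. *ZEB2* was at 65.0, 60.7 and 34.4 RPM in *EZH2*+/+, 19.5, 8.79 and 19.2 RPM in *EZH2*-/+, 6.70, 8.60 and 5.94 RPM in *EZH2*-/- and 12.4, 7.45 and 8.99 RPM in *EZH2*-/- +*EZH2* libraries. All 9 libraries of edited lines were below those of *EZH2*+/+. Relative to *EZH2*+/+ *ZEB2* fell by 2.86 in *EZH2*-/- (adjusted p = 9.95e-05), by 2.44 in *EZH2*-/- +*EZH2* (adjusted p = 0.00102) and by 1.78 in *EZH2*-/+ ESCs (adjusted p = 0.0246), and between *EZH2*-/- and *EZH2*-/- +*EZH2* ESCs the difference was -0.42 (95% interval -1.13 to 0.29). The call in *EZH2*-/+ was lost in the fit of the 2 genotypes alone (adjusted p = 0.192), with no filter (0.126), and without *EZH2*+/+ library 1 (0.119) or 2 (0.144) or *EZH2*-/+ library 2 (0.0853). Of 7 ectoderm markers tested, 2 were called lower in *EZH2*-/+ ESCs, 3 with *EZH2* deleted and 3 with it restored, each relative to *EZH2*+/+. Of all genes 0.966%, 18.8% and 6.9% were called lower in these comparisons. Among the markers was *SOX1*, at a mean of 7.41 RPM in *EZH2*+/+ and 0.606, 0.0162 and 0.162 RPM in these genotypes. The part of ectoderm markers in the fall of *ZEB2* was not tested. *ZEB1* was at 7.28, 12.4 and 2.91 RPM in *EZH2*+/+, 5.07, 5.92 and 3.49 RPM in *EZH2*-/+, 3.29, 2.40 and 1.28 RPM in *EZH2*-/- and 5.12, 4.50 and 2.52 RPM in *EZH2*-/- +*EZH2* libraries. Its *EZH2*+/+ and *EZH2*-/- libraries overlapped, and the third library was the lowest of each genotype. *ZEB1* fell by 1.52 relative to *EZH2*+/+ (standard error 0.48, adjusted p = 0.0296). That call was lost without *EZH2*+/+ library 1 (adjusted p = 0.0821) or 2 (0.135), *EZH2*-/- library 2 (0.0646) or 3 (0.116), with no filter (0.103) and by voom (0.0619). *ZEB1* overlaps *ZEB1-AS1* and *ZEB2* overlaps *ZEB2-AS1* and 2 further listed genes.

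Over the 12 libraries the member most like *TWIST1* in log2 level was *FN1* (Pearson's r = 0.955), and the lowest r among the 45 pairs was that of *EPCAM* and *ZEB2* (-0.900), followed by *CDH1* and *ZEB1* (-0.864) and *CDH1* and *CDH2* (-0.842). Libraries of a genotype are not independent points here, and these values describe the 12 libraries. Of the 15498 other genes averaging 1 RPM or more, the closest to *TWIST1* were *AP1M2* (0.959), *FN1* (0.955) and *TTC39C* (0.954), those to *FN1* were *SYTL5* (0.976), *TBX3* (0.972) and *PLBD1* (0.968), and those to *CDH1* were *KLF4* (0.963), *SPINT1* (0.959) and *DEPTOR* (0.957). *EPCAM* was followed by *SEPHS1* (0.950), *TDGF1* (0.937) and *PRKCQ* (0.929), and *ZEB2* by *SOX1* (0.980), *PCDHGC4* (0.973) and *SDK2* (0.973). For *CDH2* the closest were *ITGA4* (0.972), its overlapping gene *AC015933.2* (0.961) and *CCDC171* (0.958), and for *VIM* its overlapping gene *RP11-124N14.3* (0.999), *KMO* (0.972) and *ORAI3* (0.969). *SNAI2* was closest to *WBP1L* (0.955), *ITGA11* (0.950) and *RSPO3* (0.939), and *ZEB1* to *WHSC1L1* (0.972), *KIF18A* (0.969) and *BTAF1* (0.968).

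For chromatin, each gene was read at the 5 kb window around 1 of its start sites that had the most H3K27me3 in *EZH2*+/+ ESCs. The table holds 1 value per genotype and mark, which for histone marks and input averages 2 libraries (as the steps of its lowest values show), so differences between genotypes carry no error and no test. The paper reports more replicates per cell line than this. They are given as differences of log2(RPM + 0.1) beside the same share over all 35684 gene names. Depths, judged from the lowest value of each column, were 3.43 M to 23.8 M reads (M, 1e6) for histone marks and input and 93.2 M for EZH2. For histone marks and input this is the geometric mean depth of a library.

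**Figure D3:**
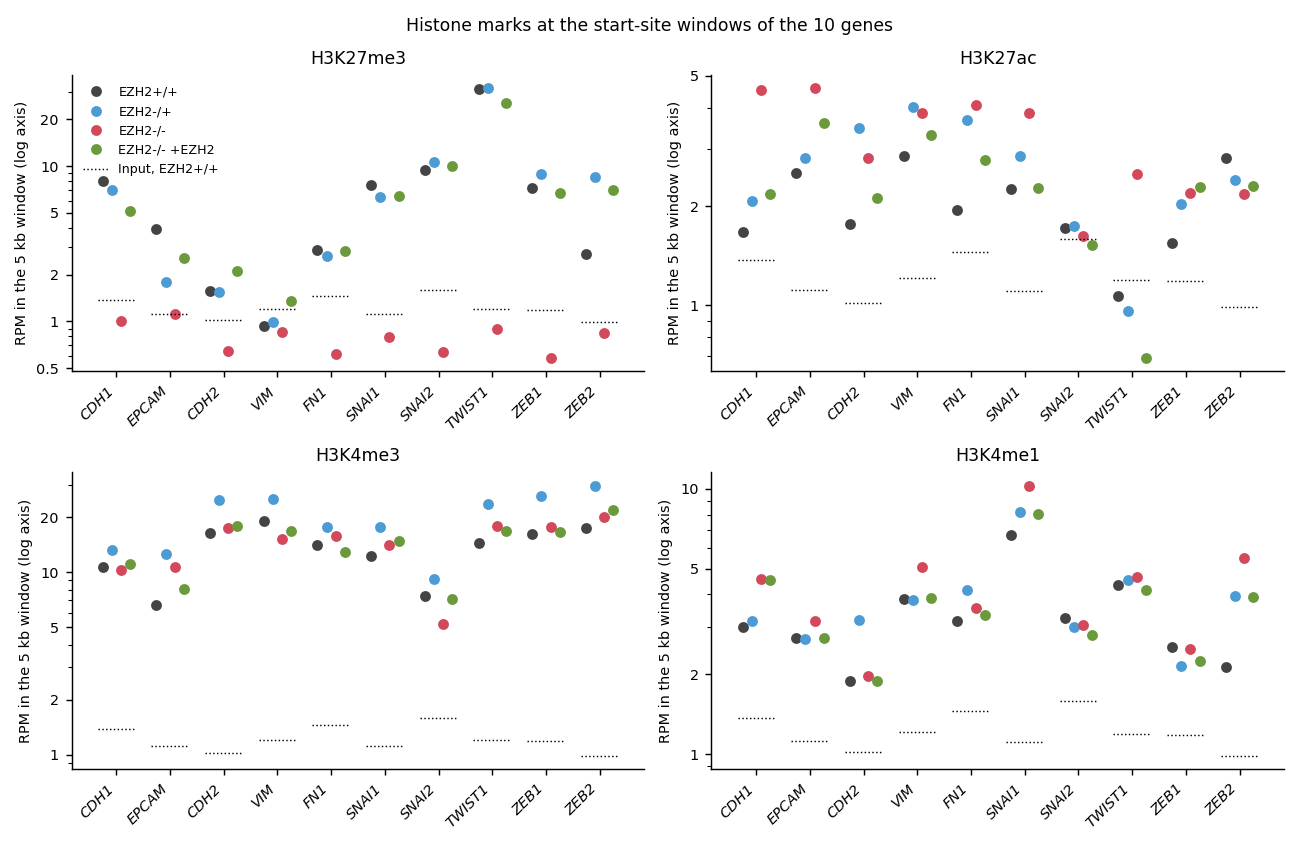
H3K27me3, H3K27ac, H3K4me3 and H3K4me1 in RPM on log axes at the 5 kb window of each gene with the most H3K27me3 in *EZH2*+/+ ESCs, 1 point per genotype, with input of *EZH2*+/+ as a dotted line. The *EZH2*-/- points of H3K27me3 lie between 0.583 and 1.12 RPM for all 10 genes, and *TWIST1* has the most H3K27me3 in the other 3 genotypes.

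In *EZH2*+/+ ESCs H3K27me3 exceeded input at 9 of the 10 genes, where 64.3% of gene names did, and H3K4me3 did at all 10, where 80.4% did. *TWIST1* (chromosome 7, 19115172 to 19120172) had the most, 31.2 RPM against 1.19 RPM in input, at the 98.4 percentile of gene names. It was also the member with the most EZH2, 4.51 RPM (98.8 percentile), against 0.31 to 1.06 RPM at the others, and the one with the least H3K27ac, 1.07 RPM (9.33 percentile). H3K27me3 followed at *SNAI2* with 9.44, *CDH1* with 7.98, *SNAI1* with 7.52 and *ZEB1* with 7.25 RPM, between the 86.3 and 89.1 percentiles. Lower values were measured at *EPCAM* (3.92 RPM), *FN1* (2.88), *ZEB2* (2.71) and *CDH2* (1.56), and *VIM* was the exception, with 0.931 RPM against 1.21 RPM in input. *VIM* had the most H3K4me3 of the 10, 19.2 RPM, and its H3K27ac, 2.85 RPM, was at the 84.2 percentile. The *EPCAM* value comes from a window centred 23990 bp inside the gene. At the window on its start, H3K27me3 was 1.92 RPM against 1.88 RPM in input.

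Without EZH2 the mark was below input at all 10 genes, where 79.1% of gene names were. *TWIST1* went from 31.2 RPM to 0.898 RPM when EZH2 was lost, and stood at 25.4 RPM with the transgene on. In *EZH2*-/- relative to *EZH2*+/+ ESCs 9 of the 10 were lower by 1 or more on the log2 scale, where 48% of gene names were, and relative to *EZH2*-/- +*EZH2* ESCs again 9, where 37.3% were, with *VIM* the exception in both (-0.11 and -0.60). The median change of the 10 was -2.47 and -2.55, against -0.94 and -0.59 over all gene names. The windows were chosen on the *EZH2*+/+ value, which favours a decrease from it, and more so where a gene has many windows. The 10 members had 102 windows in all, from 1 at *SNAI1* to 23 at *ZEB2*, and the 35684 gene names had 153958, so the shares are not fully alike. At the first listed window of each gene 6 and 5 of the 10 were lower by 1 or more, where 40.1% and 30.6% of gene names were, and 1 was higher relative to *EZH2*+/+ ESCs, where 4.08% were. The largest decreases after *TWIST1* (-4.97 and -4.67) were those of *SNAI2* (-3.69 and -3.77) and *ZEB1* (-3.43 and -3.31), one a gene whose RNA rose relative to *EZH2*-/- +*EZH2* ESCs and the other a gene whose RNA was lower than in *EZH2*+/+ ESCs.

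Restoring *EZH2* brought the mark above input again at 9 of 10 genes, where 51.4% of gene names were above it. *ZEB2* passed its *EZH2*+/+ level, at a window centred 3339 bp inside the gene that does not reach the gene's outermost start. Its H3K27me3 was 2.71 RPM in *EZH2*+/+ ESCs, 8.48 RPM with 1 allele, 0.844 RPM with none and 7.01 RPM with the transgene on. Of the 10 in *EZH2*-/+ ESCs it was the 1 gene higher by 1 or more on the log2 scale (1.61), where 0.653% of gene names were, and so it was in *EZH2*-/- +*EZH2* ESCs (1.34), where 1.18% were. Its RNA was lower than in *EZH2*+/+ in all 3 edited genotypes, including *EZH2*-/-, where the mark was below input. *EPCAM* was the 1 member lower by 1 or more in *EZH2*-/+ ESCs (-1.08, from 3.92 to 1.80 RPM), where 4.49% of gene names were, and its RNA was higher there. At the window on the *EPCAM* start the change was -0.64.

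H3K27ac, a mark of active promoters and enhancers, was higher by 1 or more in *EZH2*-/- relative to *EZH2*+/+ ESCs at 3 of the 10 genes, where 9.18% of gene names were. These were *CDH1* (1.67 to 4.53 RPM, a change of 1.39), *TWIST1* (1.07 to 2.51 RPM, 1.16) and *FN1* (1.96 to 4.06 RPM, 1.02). With the mean over all windows of a gene 1 of the 10 was past this size, where 5.76% of gene names were, and with a pseudocount of 1 RPM 1 was, where 2.61% were. Relative to *EZH2*-/- +*EZH2* ESCs *TWIST1* (1.72) and *CDH1* (1.02) were higher by 1 or more, where 3.85% of gene names were, and *FN1* was higher by 0.54. *ZEB2* had the lowest change of the 10 relative to *EZH2*+/+ ESCs (-0.35), and *SNAI2* was at 1.53 to 1.75 RPM in all 4 genotypes, close to its input of 1.24 to 1.65 RPM. *EPCAM* changed by 0.84 at its internal window and by 0.35 at the window on its start.

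H3K4me3 changed little at the windows with the most H3K27me3. None of the 10 differed by 1 or more there between *EZH2*-/- and *EZH2*+/+ ESCs, where 2.47% of gene names were higher and 12.6% lower, and the range was -0.50 at *SNAI2* to 0.69 at *EPCAM*. In *EZH2*-/+ ESCs all 10 were higher there than in *EZH2*+/+ ESCs, by 0.29 to 0.93, where 51.4% of gene names were higher. The result for *EZH2*-/- ESCs depended on the window and on scaling. At the first listed window 3 of the 10 were lower by 1 or more relative to *EZH2*+/+ ESCs, where 5737 of 35684 gene names were. After centring on gene names without H3K27me3, 1 was higher by 1 or more, where 3699 gene names were. The *EZH2*+/+ H3K4me3 column was the shallowest, at 3.43 M reads per library. H3K4me1, found at enhancers and promoter flanks, was higher by 1 or more in *EZH2*-/- relative to *EZH2*+/+ ESCs at *ZEB2* only of the 10 (2.12 to 5.48 RPM, a change of 1.33), where 2.34% of gene names were, and lower at none, where 4.06% were. At the same window inside the gene *ZEB2* had more H3K4me1 than in *EZH2*+/+ ESCs in *EZH2*-/+ (0.87) and *EZH2*-/- +*EZH2* ESCs (0.85) too.

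**Figure D4:**
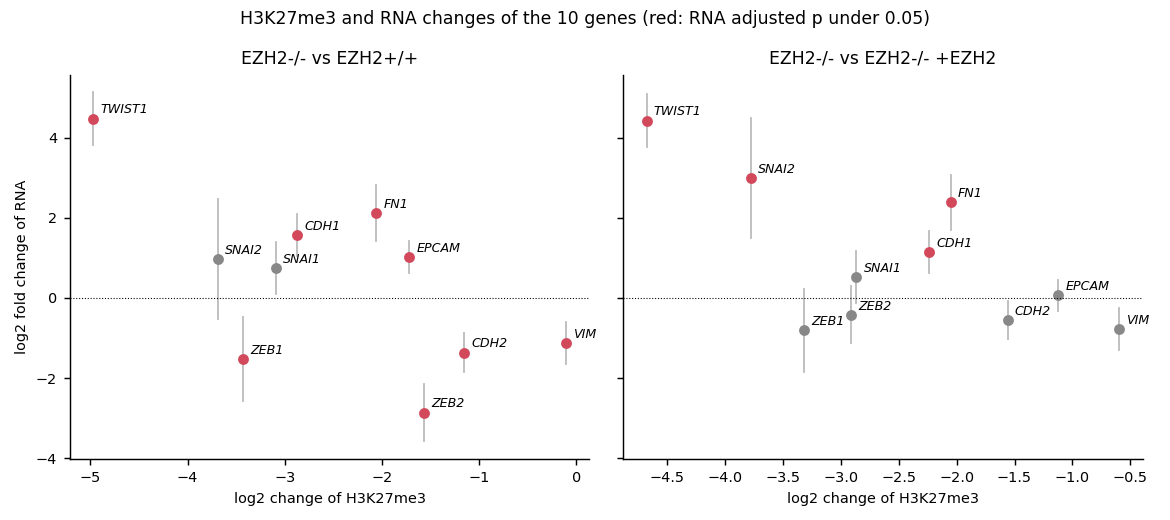
Change of H3K27me3 (x axis, log2, no replicate error) and of RNA (y axis, log2 fold change with 95% limma interval) for the 10 genes in both comparisons of *EZH2*-/- ESCs, with genes called in RNA in red. In the comparison with *EZH2*+/+ ESCs, genes that lost between 1.15 and 4.97 of H3K27me3 spread from -2.86 to 4.48 in RNA.

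The 9 genes with H3K27me3 lower by 1 or more relative to *EZH2*+/+ ESCs therefore did not share a direction in RNA. Not all had much of the mark to lose. In *EZH2*+/+ ESCs *CDH2* had 1.56 RPM against 1.02 RPM in input. At the window on its start *EPCAM* had 1.92 RPM against 1.88 RPM in input. *TWIST1*, *FN1*, *CDH1* and *EPCAM* were called higher, *CDH2*, *ZEB1* and *ZEB2* were called lower, and *SNAI1* (0.75) and *SNAI2* (0.97) were not called.

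The wider setting was described with 4 lists chosen with earlier results of these data known, so their counts are a description. Of 28 further epithelial genes 18 were called higher and 2 lower in *EZH2*-/- relative to *EZH2*+/+ ESCs (median change 1.25, against -0.13 over all genes tested, of which 12.6% were called higher and 18.8% lower). They included *PKP3*, a desmosomal plakophilin (15.0 against 0.593 RPM, log2 difference 4.25), the tight junction gene *CLDN7* (37.2 against 2.24 RPM, 3.99), *OVOL1* (3.54 against 0.269 RPM, 3.31) and *GRHL2* (5.48 against 0.768 RPM, 2.69), both encoding epithelial transcription factors. Lower were *CLDN3* (1.75 against 5.64 RPM) and *RAB25* (3.82 against 7.58 RPM). Relative to *EZH2*-/- +*EZH2* ESCs 11 were called higher and 0 lower by limma (median 0.94, against 0.02), with 18 and 0 at an unadjusted p under 0.05 and 10 and 0 by voom. Of all genes tested 2.63% were called higher and 0.524% lower in that comparison, 10.8% and 6% had an unadjusted p under 0.05, and voom called 1.26% and 0.199%, and the other lists stand against the same shares. They included *PKP3* (2.17 RPM in *EZH2*-/- +*EZH2*), *CLDN7* (7.60), *OVOL1* (0.743) and *CLDN4* (5.31 against 1.11 RPM).

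Of 28 mesenchymal genes 26 were tested. In *EZH2*-/- relative to *EZH2*+/+ ESCs 9 were called higher and 1 lower (median 0.68). Higher were the collagen genes *COL3A1* (53.8 against 2.10 RPM, log2 difference 4.46), *COL6A3* (32.8 against 1.89 RPM, 3.84) and *COL5A2* (100.0 against 13.8 RPM, 2.81) and the matrix proteoglycan gene *LUM* (3.26 against 0.236 RPM), and lower was *COL1A2* (89.5 against 182 RPM). Relative to *EZH2*-/- +*EZH2* ESCs 6 were called higher and 0 lower by limma (median 0.49), with 10 and 0 at an unadjusted p under 0.05 and 2 and 0 by voom. In front were *COL3A1* (0.226 RPM in *EZH2*-/- +*EZH2*), *LUM* (0.00893 RPM), the smooth muscle actin gene *ACTA2* (25.3 against 1.16 RPM) and *COL6A3* (2.19 RPM). The *EZH2*-/- libraries differed widely in *COL3A1*, from 4.70 to 109 RPM. *COL3A1*, *COL1A2* and *LUM* are also among the 10 fibroblast or stroma markers, whose summed level was 576 RPM in *EZH2*-/- library 2 and 311 RPM in library 1, and the part of such cells in these counts was not tested.

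**Figure D5:**
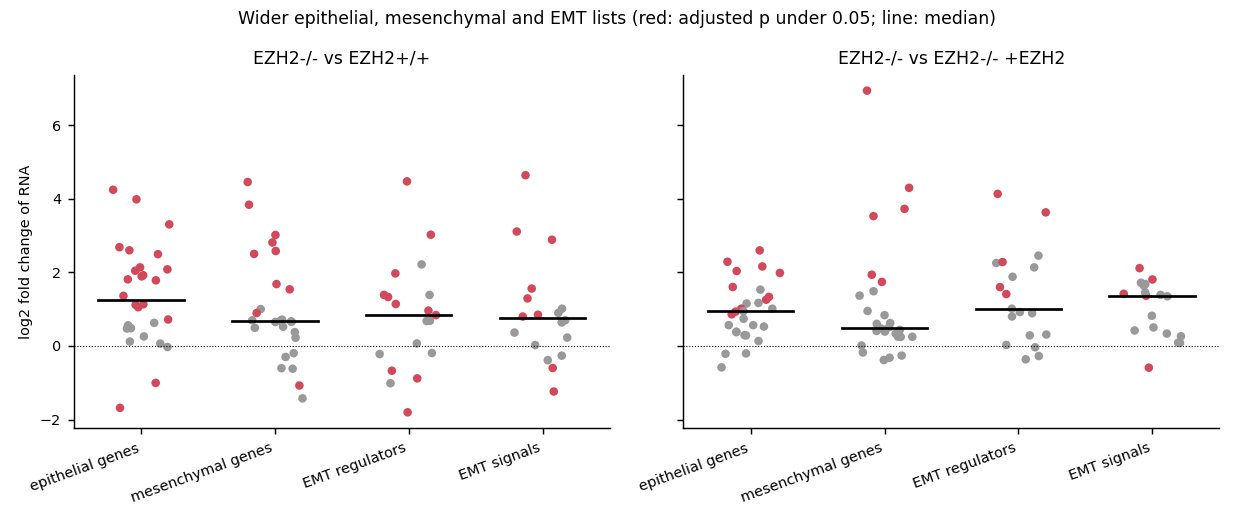
Log2 fold change of RNA for each tested gene of 4 lists (28 epithelial genes, 26 mesenchymal genes, 19 EMT regulators, 18 EMT signals) in both comparisons of *EZH2*-/- ESCs, with called genes in red and a line at each median. The medians lie between 0.49 and 1.36, against -0.13 and 0.02 over all genes tested, and without *EZH2*-/- library 2 those of the mesenchymal genes are 0.36 and 0.26.

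Among 19 further EMT regulators 8 were called higher and 3 lower relative to *EZH2*+/+ ESCs (median 0.84). Of the called genes, the forkhead genes *FOXC2* (2.62 against 0.0169 RPM), *FOXC1* (2.82 against 0.255 RPM) and *FOXF1* (0.518 against 0.0328 RPM) and *TWIST2*, the paralogue of *TWIST1* (5.34 against 2.00 RPM), rose most, and *ID2* (18.7 against 65.5 RPM), *TCF4* (25.4 against 47.0 RPM) and *SOX9* (4.63 against 7.43 RPM) fell. Relative to *EZH2*-/- +*EZH2* ESCs 5 were called higher and 0 lower by limma (median 1.01), with 13 and 0 at an unadjusted p under 0.05 and 3 and 0 by voom. Among the called genes with the largest change were *FOXC1* (0.0655 RPM in *EZH2*-/- +*EZH2*), *FOXC2* (0.120 RPM) and *MSX1* (3.60 against 0.651 RPM). Of 18 genes of EMT signals, 7 were called higher and 2 lower relative to *EZH2*+/+ ESCs (median 0.75). The TGF-beta family ligands *NODAL* (196 against 8.20 RPM) and *BMP4* (23.2 against 2.51 RPM) and the receptor gene *MET* (16.8 against 5.69 RPM) were among the called genes that rose most, and *AXL* (13.2 against 31.2 RPM) and *TGFBR1* (29.2 against 44.6 RPM) fell. Relative to *EZH2*-/- +*EZH2* ESCs 4 were called higher (*HGF*, *BMP2*, *BMP4* and *TGFB3*) and *AXL* lower by limma (median 1.36), with 11 and 1 at an unadjusted p under 0.05 and 0 and 0 by voom. The level of *HGF* was low in both, 0.429 against 0.00893 RPM.

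The list counts relative to *EZH2*-/- +*EZH2* ESCs leaned on single libraries. With any 1 library left out, 2 to 14 epithelial genes, 1 to 7 mesenchymal genes, 2 to 9 EMT regulators and 0 to 8 EMT signals were called higher, in that order. The 4 counts were 2, 2, 2 and 0 without *EZH2*-/- library 2 and 5, 1, 2 and 0 without library 3. They were 3, 3, 3 and 0 without *EZH2*-/- +*EZH2* library 1, 5, 2, 2 and 1 without library 2 and 4, 4, 4 and 1 without library 3. The regulators reached 9 and the signals 8 without *EZH2*-/+ library 3, and the regulators 8 without *EZH2*-/- library 1. The block on library number gave 17, 9, 12 and 7 called higher, where 6.19% of all genes were. Relative to *EZH2*+/+ ESCs the corresponding ranges were 16 to 19, 6 to 12, 4 to 10 and 5 to 9, with 4 regulators without *EZH2*-/- library 2 or *EZH2*+/+ library 3 and 5 without *EZH2*-/- library 3 or *EZH2*+/+ library 1, and the block gave 14 mesenchymal genes. The medians moved too. Without *EZH2*-/- library 2 that of the mesenchymal genes was 0.26 relative to *EZH2*-/- +*EZH2* and 0.36 relative to *EZH2*+/+ ESCs. A pseudocount of 1 RPM brought that of the signals to 0.56 relative to *EZH2*-/- +*EZH2* ESCs and that of the regulators to 0.52 relative to *EZH2*+/+ ESCs, and a filter at a mean of 1 RPM brought the former to 0.82. For *EZH2*-/+ relative to *EZH2*+/+ ESCs the median changes of the 4 lists were 0.25, -0.26, -0.37 and -0.030, against -0.09 over all genes, and for *EZH2*-/- +*EZH2* ESCs they were 0.35, -0.0065, -0.46 and -0.36, against -0.15.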

How the data were processed

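RNA-seq reads were trimmed with Trim Galore 0.4.0 and aligned to GRCh38 with TopHat2 2.0.12, per the submitters' processing notes, and counted per gene without regard to strand. The authors deposited log2 RPM, with a gene without a read set to 0.9 of 1 read. ChIP-seq reads were aligned with Bowtie2 2.2.5, extended, and counted in windows of 2.5 kb either side of start sites, again deposited as log2 RPM. Values were returned to linear RPM. Below 1000 reads, 100% of RNA values were whole reads (tolerance 0.05). limma 3.58.1 (R 4.3.3, eBayes with trend, Benjamini-Hochberg) was fitted to log2(RPM + 0.1) of all 12 libraries for the 20608 genes averaging 0.1 RPM or more, and tested on simulated data. Alternatives were voom on the recovered reads, other pseudocounts, filters and scaling, and leaving out each library. The log2(RPM + 0.1) scale understates changes of low genes. p-values measure the spread between libraries. RPKM used exon lengths of GENCODE 44. Library numbers may pair the libraries, as judged from the data. Deviations from genotype means correlated over 0.1 in all 18 same-number pairs (0.107 to 0.560). Pairs of different number ran from -0.489 to 0.245, which overlaps that range. The reported fit has no block on the number. Calls that a block on that number changed are given beside the result. Named genes were the 10 members, the up to 4 called genes of each list and direction with the largest change, and the 3 genes most correlated with each called member. Some genes that this rule names are not reported here. Members and lists were chosen with earlier results of these data known.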

Additional observations from a re-analysis of the deposited data

How the results depend on the processing

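Of the differences of single members under other settings, 299 kept the direction and the side of the threshold and 21 crossed it, and with a library left out 440 kept both, 34 crossed and 6 changed sign. Genes called in *EZH2*-/- relative to *EZH2*-/- +*EZH2* ESCs were 4 as reported, 2 with no filter and 2 to 4 with a library left out. In *EZH2*-/+ relative to *EZH2*+/+ ESCs they were 2 as reported, 0 with no filter or in a fit of the 2 genotypes alone, 1 by voom and 0 to 2 with a library left out. The ranges were 7 to 10 for *EZH2*-/- and 2 to 4 for *EZH2*-/- +*EZH2* relative to *EZH2*+/+ ESCs. The sign changes were all in uncalled differences: *EPCAM* between *EZH2*-/- and *EZH2*-/- +*EZH2* ESCs (-0.033 without *EZH2*-/- library 2, up to 0.17), *SNAI1* in *EZH2*-/+ (-0.083 without *EZH2*-/+ library 3, up to 0.50), *TWIST1* (0.023, down to -0.31) and *ZEB1* (0.031, down to -0.995) in *EZH2*-/+, both without *EZH2*+/+ library 2, and *TWIST1* in *EZH2*-/- +*EZH2* ESCs (-0.13 without *EZH2*+/+ library 1 and -0.10 without *EZH2*-/- +*EZH2* library 3, up to 0.24). With the replicate block, 6 members were called in *EZH2*-/- relative to *EZH2*-/- +*EZH2* ESCs, 4 higher and 2 lower, where 6.19% and 3.21% of all genes were. Relative to *EZH2*+/+ ESCs 9 were called, 5 higher and 4 lower, where 3566 and 5773 of 20608 genes were. Beyond *VIM*, *CDH2* and *SNAI1* the block changed no other call of a member. Over all genes, calls between *EZH2*-/- and *EZH2*-/- +*EZH2* ESCs moved from 542 higher and 108 lower to 1276 and 661 with the block, 259 and 41 by voom, 343 and 59 with no filter and 221 and 67 at a mean of at least 1 RPM, and those in *EZH2*-/+ relative to *EZH2*+/+ ESCs from 37 and 199 to 148 and 446 with the block, 0 and 10 in the fit of 2 genotypes, 16 and 122 by voom, 2 and 44 with no filter, 32 and 131 at a mean of at least 1 RPM and 57 and 125 with median-ratio scaling. Those in *EZH2*-/- +*EZH2* relative to *EZH2*+/+ ESCs moved from 701 and 1422 to 1290 and 3321 with the block and 463 and 1024 with no filter. For chromatin, the first listed window gave 5 genes with H3K27me3 lower by 1 or more relative to *EZH2*-/- +*EZH2* ESCs, 3 with H3K4me3 lower and 0 with H3K4me1 higher relative to *EZH2*+/+ ESCs. Of 35684 gene names 10936, 5737 and 802 were so. H3K27ac was higher at 1 gene with the mean over all windows (2056 gene names) or a pseudocount of 1 RPM (931). H3K4me1 was higher at 0 with the mean over all windows (689), and H3K4me3 at 1 after centring on gene names without H3K27me3 (3699). The cause of these changes was not tested. The list counts under other settings were chosen after seeing the data.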
